A study of Drosophila melanogaster with 6 samples.

Results

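Aminoacyl-tRNA synthetases (aaRSs) were examined in midgut intestinal stem cells (ISCs) of adult *Drosophila melanogaster* females in which Nuclear Factor Y subunit Alpha (NF-YA) was knocked down by RNA interference (RNAi). The members were chosen by gene symbol: a three-letter amino-acid code followed by RS, with or without the suffix -m, plus GluProRS and every symbol that contains PheRS. Among the 8470 genes of the deposited gene table, 35 met this rule. Of these, 20 carried no suffix and are called cytosolic here, and 15 carried -m and are called mitochondrial. The rule used no measured value.

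Each aaRS attaches one amino acid to its matching tRNAs in an ATP-dependent reaction, and so supplies the charged tRNAs that ribosomes consume. Cytosolic enzymes serve the ribosomes of the cytoplasm, whereas mitochondrial enzymes are encoded in the nucleus, imported, and charge the tRNAs encoded by the mitochondrial genome. Demand for charged tRNA follows the rate of protein synthesis, and uncharged tRNA is the signal that activates the kinase Gcn2. In mammalian cells LeuRS has also been described as a leucine sensor upstream of mTORC1.

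The study compared 3 control libraries with 3 NF-YA RNAi libraries of YFP-positive cells isolated by FACS. All flies carried the ISC driver (esg-Gal4ts with Su(H)GBE-Gal80, the latter silencing the driver in enteroblasts) and UAS-2xYFP. Control flies were crossed to Oregon R and knockdown flies carried the NF-YA RNAi construct, so genetic background and knockdown cannot be told apart. According to the labels, females spent 3 days at the restrictive temperature, 3 days at the permissive temperature and then 3 days on holidic (chemically defined) food. The methods differ, giving 3 days on the holidic diet at the permissive temperature, and the paper's results give 3 days of RNAi induction. Because the labels and the paper differ, the length of the knockdown stays uncertain. The methods describe the samples as independent and processed in parallel, and do not say how many animals made up each. The libraries are named control 1, 2 and 3 and RNAi 2, 4 and 5, after their deposited library names.

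The libraries held 76901496 (RNAi 5) to 121927206 (control 3) estimated counts in genes. Nf-YA itself, the knockdown target, was measured at 16.0, 19.7 and 23.6 CPM (counts relative to library size, with TMM scaling) in control and at 3.58, 4.92 and 4.30 in NF-YA RNAi. These groups did not overlap, and the fitted log2 fold change was -2.21 (SE 0.20, edgeR adjusted p = 0.000203). Of the 6 progenitor markers tested, 2 were called lower and 1 was above 0, with a median log2 fold change of -0.34. The gene that marks ISCs and enteroblasts, esg, was detected in every library but was lower in NF-YA RNAi by a log2 fold change of -0.62 (edgeR adjusted p = 0.00714). Egfr was lower by -1.08 (edgeR adjusted p = 0.0031). Markers of other gut cells were also lower: 6 of 15 enterocyte markers were called lower, with a summed level of 1987 to 5859 CPM in control against 322 to 1405 CPM in NF-YA RNAi. The top of the control range came from control 1. The enterocyte marker Amy-p, for example, was at 1639, 622.8 and 556.9 CPM in control and at 330.1, 101.0 and 47.1 CPM in NF-YA RNAi. The enterocyte factor nub went the other way, at 6.87, 7.53 and 7.80 CPM in control against 13.4, 10.7 and 8.11 CPM in NF-YA RNAi, which did not overlap (log2 fold change 0.54, SE 0.20, edgeR adjusted p = 0.108). Of 10 enteroendocrine markers 4 were called lower, with summed levels of 1657 to 2096 CPM against 470 to 1092 CPM. Of the 9 visceral muscle markers tested edgeR called none (1 lower at an unadjusted p under 0.05, and 2 lower in DESeq2; 464 to 569 CPM against 464 to 516 CPM summed), all 9 were below 0 with a median log2 fold change of -1.51, and TpnC4 was at 0 in all libraries. Tm1 made up nearly all of that sum, and the other muscle markers summed to 32.1, 5.58 and 4.79 CPM in control and to 7.45, 4.33 and 4.54 CPM in NF-YA RNAi, highest in control 1. Of 4 hemocyte markers 2 were called lower, with summed levels of 10.4 to 28.1 CPM against 2.64 to 5.67 CPM. The part of these shifts in the results on synthetases was not tested. In sorted pools, fewer cells of a type and less RNA per cell cannot be told apart.

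All 35 members passed the filter on low counts and were tested. In TPM (a share of transcripts, which corrects for transcript length), the cytosolic genes ranged from 4.55 for ArgRS to 208.1 for HisRS as means over the 6 libraries, with a median of 51.8. The mitochondrial genes ranged from 1.23 for ValRS-m to 14.7 for TyrRS-m, with a median of 4.52. After HisRS, the most abundant cytosolic mRNAs were those for AsnRS (171.5 TPM), AspRS (154.5), ThrRS (150.7), SerRS (142.6) and LysRS (137.9). Neighbours in this order were not always separated: AspRS and ThrRS, for example, stood at 157.9 ± 7.94 and 135.7 ± 14.8 TPM in control (SD, n = 3) but at 151.1 ± 3.97 and 165.7 ± 8.34 TPM in NF-YA RNAi, where their order was the other way round. The plot of TPM by library shows that 11 of the 15 mitochondrial genes averaged below 10 TPM (the exceptions were TyrRS-m, PheRS-m, MetRS-m and SerRS-m), whereas ArgRS was the only cytosolic gene in that range.

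**Figure D1:**
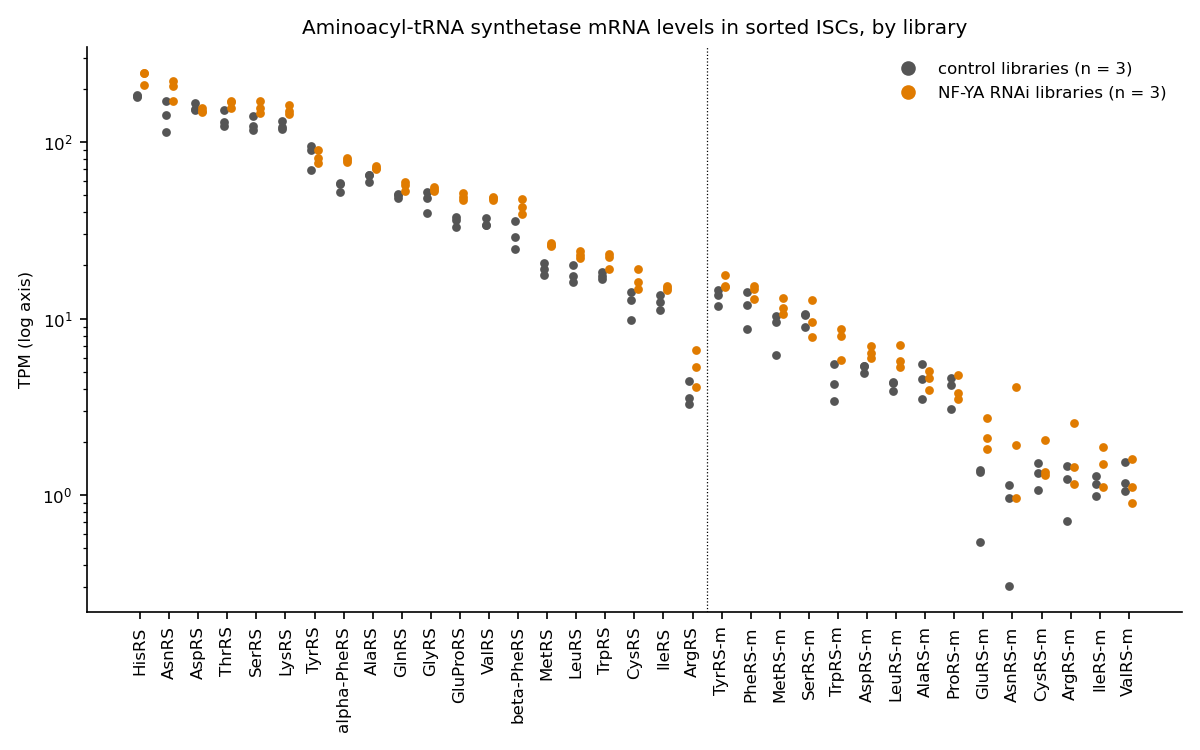
TPM of each synthetase gene on a log axis in the 3 control (grey) and 3 NF-YA RNAi (orange) libraries, ordered by mean level within the cytosolic genes (left of the dotted line) and the mitochondrial genes (right). Mean levels run from 208.1 TPM for HisRS to 4.55 TPM for ArgRS among cytosolic genes and from 14.7 TPM for TyrRS-m to 1.23 TPM for ValRS-m among mitochondrial genes.

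HisRS was measured at 180.3, 181.7 and 183.9 TPM in control 1, 2 and 3 and at 209.9, 245.7 and 247.4 TPM in RNAi 2, 4 and 5. Every RNAi library lay above every control library, and the log2 fold change of 0.28 (SE 0.09, edgeR adjusted p = 0.085) did not pass the threshold of 0.05. ArgRS, at the other end, was measured at 3.54, 3.28 and 4.45 TPM in control and at 4.09, 5.35 and 6.59 TPM in NF-YA RNAi. RNAi 2 lay within the control range for ArgRS (log2 fold change 0.42, SE 0.21, edgeR adjusted p = 0.225). TyrRS-m was measured at 11.8, 14.5 and 13.6 TPM in control and at 15.4, 15.1 and 17.7 TPM in NF-YA RNAi. Its groups did not overlap, and its log2 fold change was 0.19 (SE 0.12, edgeR adjusted p = 0.354). ValRS-m, the least abundant member, was measured at 1.54, 1.05 and 1.17 TPM in control and at 0.905, 1.61 and 1.11 TPM in NF-YA RNAi, with overlapping groups.

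Against control, 6 of the 35 genes rose in NF-YA RNAi at an edgeR adjusted p under 0.05 and none fell. The genes that rose were alpha-PheRS and beta-PheRS (both subunits of cytosolic phenylalanyl-tRNA synthetase), GluProRS, MetRS, ValRS and the mitochondrial TrpRS-m, by 1.30-fold for MetRS to 1.66-fold for TrpRS-m. Thus 17.1% of the members were called higher, against 6.19% of all 9080 genes tested (562 genes). By class, these were 25.0% of cytosolic and 6.67% of mitochondrial genes, the latter close to the share of all genes. Called lower were 8.02% of all genes (728 genes) and no member, and no member was below control at an unadjusted p under 0.05 in edgeR or called lower in DESeq2. At an unadjusted p under 0.05, 12 cytosolic and 4 mitochondrial genes were higher (45.7% of the members), against 13.4% of all genes.

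**Figure D2:**
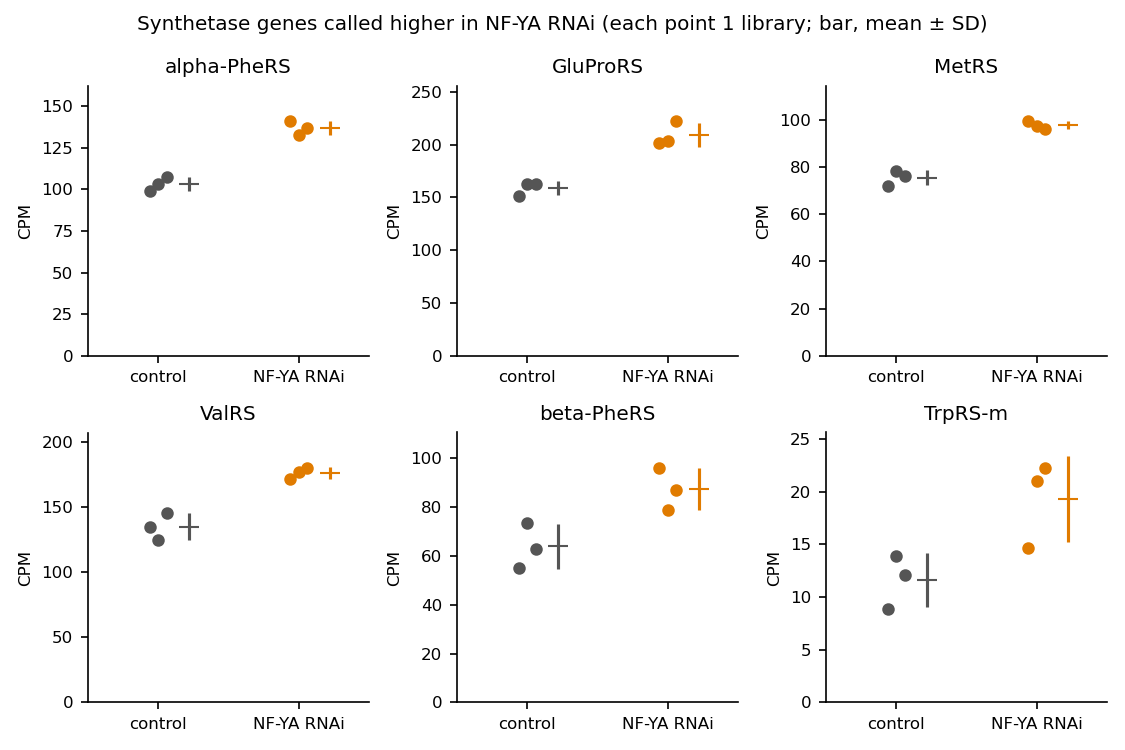
CPM of the 6 synthetase genes called higher in NF-YA RNAi, with 1 point per library and the mean ± SD beside each group (n = 3), each axis starting at 0. In every panel the 3 NF-YA RNAi libraries lie above the 3 control libraries, most narrowly for TrpRS-m, where RNAi 2 (14.7 CPM) stands next to control 2 (13.9 CPM).

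Cytosolic phenylalanyl-tRNA synthetase is a tetramer of paired alpha and beta subunits, which only together form the active enzyme. alpha-PheRS (chromosome X, 8143904 to 8145602, minus strand, annotation BDGP6.54) was measured at 98.8, 103.4 and 107.2 CPM in control and at 141.0, 132.7 and 136.7 CPM in NF-YA RNAi. The groups lay far apart relative to their spread, and the log2 fold change was 0.41 (SE 0.09, edgeR adjusted p = 0.0164). beta-PheRS (3R, 24250460 to 24252679, minus strand) was measured at 55.2, 73.5 and 63.0 CPM in control and at 96.2, 79.0 and 87.1 CPM in NF-YA RNAi. Control 2 came within a few CPM of RNAi 4, and the log2 fold change was 0.45 (SE 0.13, edgeR adjusted p = 0.0430), the highest among cytosolic members. The TPM of alpha-PheRS was 1.65 to 2.11 times that of beta-PheRS in control libraries and 1.73 to 1.98 times in NF-YA RNAi libraries, so the NF-YA RNAi range lay within the control range. The single-chain mitochondrial enzyme, PheRS-m (2R, 13968308 to 13969902, plus strand), was measured at 14.6, 18.4 and 23.1 CPM in control and at 23.3, 19.7 and 22.4 CPM in NF-YA RNAi. These groups overlapped (log2 fold change 0.22, SE 0.17, edgeR adjusted p = 0.446).

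GluProRS encodes a bifunctional protein in which glutamyl- and prolyl-tRNA synthetase are joined in one chain. The gene (3R, 23952136 to 23958391, minus strand) was measured at 151.3, 162.9 and 163.0 CPM in control and at 201.2, 203.9 and 222.2 CPM in NF-YA RNAi. All RNAi libraries exceeded all controls (log2 fold change 0.39, SE 0.09, edgeR adjusted p = 0.0208). The annotation holds a full-length transcript of 1714 codons and a shorter one of 996 codons whose coding region starts downstream and shares its stop. By Salmon's estimates the shorter transcript was the more abundant, at 24.8 ± 1.41 TPM in control and 33.9 ± 1.73 TPM in NF-YA RNAi, while the full-length transcript stood at 10.8 ± 1.42 and 15.3 ± 1.41 TPM (SD, n = 3). The full-length share was 30.4% ± 2.42 in control and 31.1% ± 2.14 in NF-YA RNAi (exact permutation test, 2-sided, p = 0.9, n = 3). An annotated antisense RNA, asRNA:CR46092, overlaps 905 exonic bases of GluProRS and was listed at 0 counts in all libraries. The strand setting of the counting is not given in the sources used here.

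MetRS, which charges both initiator and elongator methionine tRNA, was measured at 71.8, 78.2 and 76.1 CPM in control and at 99.3, 97.4 and 96.2 CPM in NF-YA RNAi. The gene (2R, 18846858 to 18850599, minus strand) had the smallest SD of the 6 in NF-YA RNAi, 1.60 CPM, and a log2 fold change of 0.37 (SE 0.09, edgeR adjusted p = 0.0234). ValRS, the valine enzyme (2R, 13198850 to 13202709, plus strand), was measured at 134.9, 125.0 and 145.1 CPM in control and at 171.4, 176.8 and 180.2 CPM in NF-YA RNAi. Its groups were clearly apart, with a log2 fold change of 0.38 (SE 0.09, edgeR adjusted p = 0.0254).

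TrpRS-m, the mitochondrial tryptophan enzyme (3L, 17849727 to 17852453, plus strand), was the single mitochondrial gene called. It was measured at 8.89, 13.9 and 12.1 CPM in control and at 14.7, 21.0 and 22.3 CPM in NF-YA RNAi. RNAi 4 and RNAi 5 were well above control, whereas RNAi 2 was close to control 2, and the log2 fold change was 0.73 (SE 0.21, edgeR adjusted p = 0.0449). Its cytosolic counterpart TrpRS was measured at 31.3, 30.2 and 33.7 CPM in control and at 32.6, 39.6 and 38.4 CPM in NF-YA RNAi, with RNAi 2 inside the control range. No annotated gene overlaps TrpRS-m, MetRS, ValRS or either cytosolic PheRS gene.

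Each of these calls was lost in some of the fits that left out 1 library. Without control 1, RNAi 4 or RNAi 5, edgeR called none of the 35 genes, although 8, 9 and 8 cytosolic and 2, 3 and 2 mitochondrial genes were higher at an unadjusted p under 0.05. Those fits called 588, 506 and 527 genes in all, higher and lower, against 1290 with all 6 libraries. Without control 2 the only call was beta-PheRS, without control 3 TrpRS-m and beta-PheRS were lost, and without RNAi 2 MetRS and beta-PheRS were lost and HisRS was gained. DESeq2 called all 6 and added AsnRS, HisRS, LeuRS and LeuRS-m, for 10 of 35 members against 8.3% of its genes called higher. In contrast, limma on the deposited gene values and edgeR with a replicate block each called none of the 35. The block used the replicate number in the sample title, which control 3 and RNAi 5 share with no library of the other group. Control 3 and RNAi 5 thus added nothing to the blocked comparison. The 6 genes had log2 fold changes above 0 in each of these fits. Without 1 library the values were 0.376 to 0.434 for alpha-PheRS, 0.356 to 0.565 for beta-PheRS and 0.358 to 0.42 for GluProRS. They were 0.338 to 0.4 for MetRS, 0.331 to 0.438 for ValRS and 0.573 to 0.897 for TrpRS-m.

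The direction was shared by most of the family. The log2 fold change was above 0 for 29 of the 35 genes, against 48.3% of all genes tested. Among cytosolic genes 18 of 20 were above 0, with a median of 0.25, and among mitochondrial genes 11 of 15 were above 0, with a median of 0.23, whereas the median over all genes tested was -0.018. With scaling by library size alone, 18 cytosolic and 14 mitochondrial genes and 55.7% of all genes were above 0. In 18 members (51.4%) all 3 NF-YA RNAi libraries exceeded all 3 control libraries, against 16.5% of all genes (1502 genes). The reverse held for no member and for 19.4% of all genes (1759 genes). In the gene values the authors deposited, 20 members (57.1%) lay wholly above control, against 17.8% of the genes in that table. The members are not independent of each other, since they come from the same libraries.

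**Figure D3:**
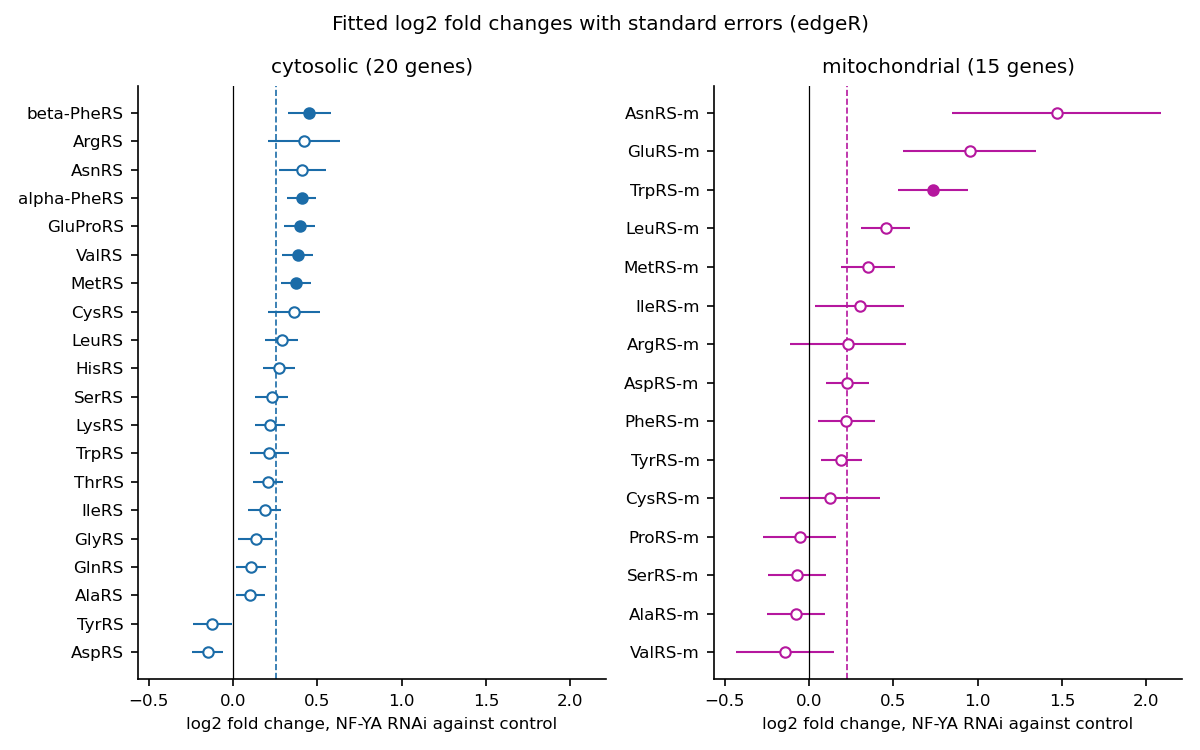
Fitted log2 fold change of NF-YA RNAi against control for each cytosolic (left, blue) and mitochondrial (right, magenta) synthetase gene, with bars of 1 standard error. Filled points are the 6 genes called at an edgeR adjusted p under 0.05, and dashed lines mark the class medians, 0.25 and 0.23. The bars are wider for mitochondrial genes, and 29 of 35 points lie above 0.

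Among the cytosolic genes that were not called, AlaRS, HisRS, IleRS, LeuRS, LysRS, SerRS and ThrRS also had non-overlapping groups, with log2 fold changes of 0.10 for AlaRS to 0.29 for LeuRS. LysRS was tightly measured, at 268.6, 275.3 and 270.2 CPM in control against 298.1, 310.1 and 338.9 CPM in NF-YA RNAi (log2 fold change 0.22, SE 0.09, edgeR adjusted p = 0.133). AsnRS, ArgRS, CysRS, TrpRS, GlyRS and GlnRS had overlapping groups and log2 fold changes between 0.11 for GlnRS and 0.42 for ArgRS. AspRS and TyrRS were the only cytosolic genes with a log2 fold change below 0, and this held in every alternative fit. AspRS had the lowest value, with 347.8, 315.0 and 367.3 CPM in control and 305.0, 318.5 and 304.3 CPM in NF-YA RNAi. RNAi 4 exceeded control 2, so the groups overlapped (log2 fold change -0.15, SE 0.09, edgeR adjusted p = 0.314). Of the 2266 exonic bases of AspRS, 1665 are shared with annotated exons of other genes, 1448 of them with the antisense asRNA:CR45141 (0.137 ± 0.116 CPM in control against 0.112 ± 0.0595 CPM in NF-YA RNAi; SD, n = 3) and 127 with Nmda1 on the other strand (216.2 ± 37.5 and 232.8 ± 26.5 CPM), and the part of this overlap in the value of AspRS was not tested. TyrRS was measured at 138.6, 174.9 and 174.9 CPM in control and at 162.4, 138.6 and 147.8 CPM in NF-YA RNAi (log2 fold change -0.12, SE 0.12, edgeR adjusted p = 0.548).

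Among the mitochondrial genes, AsnRS-m had the highest log2 fold change, 1.47 (SE 0.62), and did not pass the test (edgeR adjusted p = 0.149). It was measured at 0.492, 1.43 and 1.81 CPM in control and at 1.42, 2.84 and 6.09 CPM in NF-YA RNAi. RNAi 5 alone was far above the rest, RNAi 2 lay inside the control range, and without RNAi 5 its log2 fold change was 0.78. GluRS-m was measured at 1.03, 2.43 and 2.51 CPM in control and at 3.15, 3.66 and 4.77 CPM in NF-YA RNAi. Its groups did not overlap, and the log2 fold change was 0.95 (SE 0.40, edgeR adjusted p = 0.143). LeuRS-m stood closest to the threshold, at 13.9, 14.5 and 15.1 CPM in control and 18.8, 17.4 and 23.3 CPM in NF-YA RNAi (log2 fold change 0.45, SE 0.14, edgeR adjusted p = 0.0668). AspRS-m, MetRS-m and TyrRS-m had non-overlapping groups as well, with log2 fold changes of 0.23, 0.35 and 0.19. ArgRS-m, CysRS-m and IleRS-m were above 0 with overlapping groups, at 0.23, 0.12 and 0.30.

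ValRS-m had the lowest log2 fold change in this class, -0.14 (SE 0.29, edgeR adjusted p = 0.797). It was measured at 5.78, 3.64 and 4.30 CPM in control and at 3.10, 5.49 and 3.82 CPM in NF-YA RNAi, so the groups overlapped, with RNAi 2 lowest and control 1 highest. AlaRS-m, ProRS-m and SerRS-m were at -0.08, -0.06 and -0.07, within 1 SE of 0, and their sign depended on the scaling, since all 3 were just above 0 when libraries were scaled by size alone. SerRS-m shares 356 exonic bases with Nagk on the other strand and ArgRS-m shares 325 with mRpS9, a mitochondrial ribosomal protein gene at 110.5 ± 7.89 CPM in control (SD, n = 3). Reads in the shared stretch cannot be told apart without the strand.

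Summed levels were compared between the classes. The summed TPM of the cytosolic genes was 1245, 1446 and 1367 in control and 1668, 1603 and 1692 in NF-YA RNAi. The summed TPM of the mitochondrial genes was 61.7, 79.2 and 76.9 in control and 86.3, 84.8 and 102.7 in NF-YA RNAi. For both sums all knockdown libraries exceeded all controls. Their ratio was 20.2, 18.3 and 17.8 in control and 19.3, 18.9 and 16.5 in NF-YA RNAi, and these ranges overlapped. The standard error of a log2 fold change had a median of 0.0955 among cytosolic genes and 0.209 among mitochondrial genes. Called higher were 25.0% of cytosolic and 6.67% of mitochondrial genes, against 6.19% of all genes tested. The mitochondrial share was thus close to that of all genes. Whether the share differed between the classes was not tested.

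The amino acids served by separate genes allowed 16 pairs to be compared, counting GluProRS with GluRS-m and with ProRS-m and each cytosolic PheRS subunit with PheRS-m. Since GluProRS and PheRS-m recur, the pairs are not all separate. The Glu and Pro pairs used the whole GluProRS gene, most of whose TPM was assigned to the shorter transcript. The mitochondrial log2 fold change was above the cytosolic one in 7 pairs. In an exact permutation test over libraries (2-sided), the change of the mitochondrial to cytosolic log2 ratio reached the smallest p possible with 3 against 3 libraries, 0.1, for Asp, Glu and Tyr, and no pair had an adjusted p under 0.436. For Asp the log2 ratio was higher in NF-YA RNAi by 0.38, for Tyr by 0.31 and for Glu by 0.65. The lowest value was that for Val, -0.55 (exact permutation p = 0.3). In TPM, AsnRS exceeded AsnRS-m by 177.5 times in control and 85.9 times in NF-YA RNAi, the most uneven pair. The NF-YA RNAi ratio rested on RNAi 5 and was 136.5 without it, and the libraries overlapped, at 375.7, 177.9 and 124.5 in control and 231.3, 89.1 and 50.3 in NF-YA RNAi. MetRS exceeded MetRS-m by 2.20 and 2.23 times, the most even one.

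**Figure D4:**
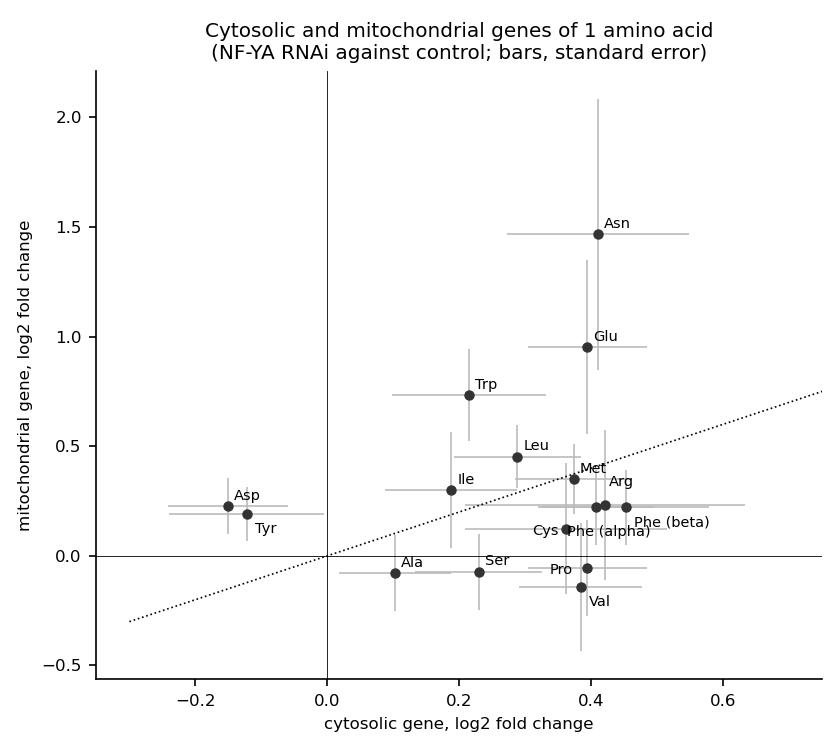
Log2 fold change (NF-YA RNAi against control) of the mitochondrial gene plotted against that of the cytosolic gene for the same amino acid in 16 pairs, with bars of 1 standard error and a dotted line of equal change. In 7 pairs the point lies above the line. Asp and Tyr stand left of 0, since AspRS and TyrRS were at -0.15 and -0.12.

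For Gln, Gly, His, Lys and Thr the table held no gene with the suffix. In human cells 1 gene supplies both the cytosolic and the mitochondrial form of GlyRS, and the same is true of LysRS, whereas mitochondrial glutaminyl-tRNA is made indirectly by the GatCAB amidotransferase. The fly annotation lists, for GlyRS, HisRS, LysRS and ThrRS, transcripts that encode proteins of more than 1 length: 679 or 765 codons for GlyRS, 522 or 554 to 564 for HisRS, 574 or 607 for LysRS and 690 or 747 for ThrRS. For GlyRS and ThrRS the longer coding region begins upstream of the shorter one and ends at the same stop. Whether the longer proteins are mitochondrial was not tested here.

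The longer forms were the minor share of each gene's TPM. For LysRS they made up 11.6% ± 1.35 in control and 13.0% ± 0.902 in NF-YA RNAi (SD, n = 3), for a sum of 13.1 to 15.6 TPM against 19.6 to 20.2 TPM. For GlyRS they made up 7.80%, 5.43% and 8.90% in control and 6.44%, 6.36% and 2.77% in NF-YA RNAi, with RNAi 5 the lowest. The mean shares were 8.82% ± 0.748 and 7.78% ± 0.994 for HisRS and 4.52% ± 0.572 and 4.60% ± 0.987 for ThrRS (SD, n = 3). The shares overlapped between groups for all 4 genes, whereas the summed TPM of the longer LysRS forms did not. For the shares the exact permutation p was 0.2 to 1.0 (2-sided, n = 3), where 3 against 3 libraries cannot go below 0.1. Within HisRS, the longer transcripts HisRS-RC and HisRS-RE, both of 554 codons, did not overlap between groups. HisRS-RC made up 7.90%, 7.29% and 7.11% of the gene's TPM in control and 5.57%, 5.63% and 5.69% in NF-YA RNAi. HisRS-RE made up 0.978%, 0.76% and 0.649% in control and 0.471%, 0.444% and 0.632% in NF-YA RNAi. The exact permutation p was 0.1 for each, the smallest possible (n = 3). The level of HisRS-RC was 13.5 ± 0.633 TPM in control and 13.2 ± 1.32 TPM in NF-YA RNAi (SD, n = 3). That of HisRS-RE was 1.45 ± 0.290 and 1.21 ± 0.306 TPM. Both transcripts were singled out after their values were seen. These TPM are Salmon's division of reads between transcripts that share most of their sequence, so they carry an error that the spread between libraries shows only in part.

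**Figure D5:**
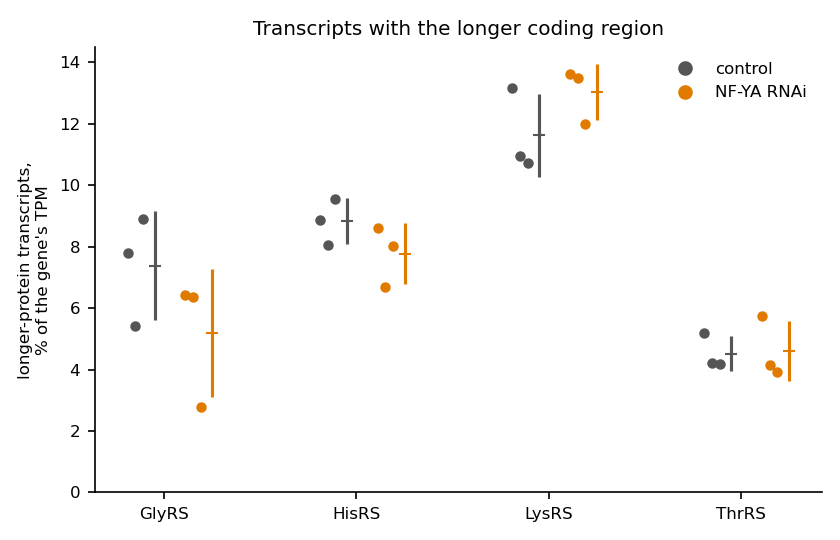
Share of each gene's TPM assigned to transcripts with the longer coding region, by library, for the 4 genes that have such transcripts and no mitochondrial counterpart in the table (points, libraries; bars, mean ± SD, n = 3). The shares lie between 2.77% and 13.6%, and control and NF-YA RNAi overlap for every gene.

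In animal cells ArgRS, AspRS, GlnRS, GluProRS, IleRS, LeuRS, LysRS and MetRS are held with the scaffold proteins AIMP1, AIMP2 and AIMP3 in a multi-synthetase complex. Of these 8 synthetases GluProRS and MetRS were called, 7 were above 0, and the median log2 fold change was 0.25. The other 12 cytosolic genes had 3 called and the same median, 0.25. Of all genes tested, 6.19% were called higher and 48.3% were above 0. This grouping was made after the values were seen, and its counts were not tested against those shares. The scaffold genes were near this level: AIMP1 was measured at 87.3, 81.9 and 96.3 CPM in control and at 99.9, 116.3 and 129.3 CPM in NF-YA RNAi (log2 fold change 0.38, SE 0.12, edgeR adjusted p = 0.0602). AIMP3 was measured at 75.1, 68.9 and 81.0 CPM in control and at 86.0, 95.0 and 105.8 CPM in NF-YA RNAi (log2 fold change 0.35, SE 0.11, edgeR adjusted p = 0.0651). AIMP2 was at 0.25 (SE 0.13, edgeR adjusted p = 0.226). The groups did not overlap for any of the 3 scaffold genes, and none passed the test.

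Synthetases fall into 2 unrelated catalytic folds, class I and class II. With GluProRS, which joins both folds, set aside, the 18 class I genes of the family had 3 called (MetRS, ValRS and TrpRS-m) and a median of 0.29 on the log2 scale, and the 16 class II genes had a median of 0.22 with 2 called (both cytosolic PheRS subunits). Of all genes tested, 6.19% were called higher. The difference between the folds, or of either from that share, was not tested, and the folds were grouped after the values were seen.

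Genes that act beside the synthetases in translation were described in the same fit, in which 6.19% of all genes were called higher and 8.02% lower. Of the 8 tested genes for complex scaffolds and tRNA-dependent transfer, edgeR called none (3 higher at an unadjusted p under 0.05, and 2 in DESeq2), and the median log2 fold change was 0.30. The amidotransferase subunits GatA, GatB and GatC were at -0.21, -0.05 and 0.47, of which GatC had the smallest edgeR adjusted p, 0.108, and non-overlapping groups. Of 9 mitochondrial translation factors only mEFTs, the exchange factor that recycles the mitochondrial elongation factor Tu, was called, at a log2 fold change of 0.49 (SE 0.10, edgeR adjusted p = 0.0116), with a median of 0.25 for the list. Of 9 cytosolic elongation and termination factors, eEF1delta, a subunit of the guanine exchange factor of eEF1, rose (log2 fold change 0.57) and so did the termination factor eRF3 (0.41), whereas the translocase eEF2 fell (-0.39), and the median was -0.022. Of 12 genes for tRNA modification and processing, the cytosine methyltransferase Nsun2 (0.63) and the 3′ end nuclease RNaseZ (0.50) rose and none fell in edgeR, with a median of 0.20. All of these calls were lost in at least 2 alternative fits, with limma on the deposited values in each case, at adjusted p up to 0.208 for eRF3.

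Of 13 tested genes of the amino acid response and amino acid synthesis, 2 rose and 3 fell, and the median log2 fold change was -0.13. AsnS, asparagine synthetase, which makes the amino acid and does not charge tRNA, was measured at 23.2, 28.7 and 28.4 CPM in control and at 58.2, 64.6 and 70.9 CPM in NF-YA RNAi. Its groups were far apart (log2 fold change 1.27, SE 0.13, edgeR adjusted p = 0.000407). CG11899, a homolog of phosphoserine aminotransferase, rose by 0.89, while CG6287, a homolog of phosphoglycerate dehydrogenase in the same serine pathway, fell by 0.93 on the log2 scale. Sesn, the fly Sestrin and an inhibitor of mTORC1 signaling, fell by 0.96 and scyl, another inhibitor, fell by 0.64 on the log2 scale. AsnS and CG6287 were called in every fit, whereas CG11899, Sesn and scyl lost their calls in at least 2, with adjusted p up to 0.0788, 0.0627 and 0.103. The kinase Gcn2 (-0.13) and crc (-0.14), the fly homolog of ATF4, a factor that controls synthetase genes in mammalian cells, were not called (edgeR adjusted p = 0.558 and 0.354).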

How the data were processed

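The authors deposited estimated counts and TPM from Salmon for 34989 transcripts in each of 6 libraries, made according to the methods with Trim Galore, STAR and the nf-core/rnaseq pipeline on 75 bp paired reads. The submitters' processing notes name other tools (FastQC, Trimmomatic, TopHat2, HTSeq and limma). The deposited gene table of 8470 genes holds normalized count signal per library, used here only in an alternative test, and fold changes and p-values of the authors' own comparison, which were not used. Here the transcript estimates were added up per gene with Ensembl's release 115 of BDGP6.54, which gave 17609 genes and left 44 transcripts in no gene (at most 0.345% of a library's counts), and the sums were rounded. After filterByExpr and TMM scaling, the groups were tested by quasi-likelihood in edgeR (version 4.0.16 under R 4.3.3), with p-values adjusted by Benjamini-Hochberg over every gene tested. A gene is called at an adjusted p under 0.05. CPM are TMM-scaled and not corrected for length, and TPM were used to compare genes. The pipeline was tested on simulated counts. No 2 libraries agreed within sampling noise. Values by library are given for the genes called, the highest and lowest fold change and level in each class, GluProRS and the PheRS genes, and Nf-YA. Values for TrpRS, TyrRS, LysRS, nub, Amy-p, GluRS-m, LeuRS-m, AIMP1, AIMP3 and AsnS were added after they were seen. Members, gene lists, markers and tests were chosen with earlier results of these data known. The multi-synthetase complex, fold class and isoform groupings were added after seeing the values. Alternatives used DESeq2, library-size scaling, no filter, limma 3.58.1 on log2(deposited value + 1 or 10), a replicate block and leaving out each library.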

Additional observations from a re-analysis of the deposited data

How the results depend on the processing

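With edgeR, 5 of 20 cytosolic and 1 of 15 mitochondrial genes were called higher, against 6.19% of all genes tested. DESeq2 called 8 and 2, scaling by library size 7 and 2, and omitting the filter 6 and 1. With limma on log2(deposited value + 1) and with + 10 the counts were 0 and 0 (8 and 3, and 7 and 3, at an unadjusted p under 0.05), in tests that called 229 and 285 genes in all against 1290 with edgeR. Leaving out 1 library gave 0 to 4 cytosolic and 0 to 1 mitochondrial calls, with 506 to 1243 calls over all genes. With a replicate block by title number the counts were 0 and 0 (6 and 3 at an unadjusted p under 0.05), with class medians of 0.23 and 0.20. The control and RNAi libraries share only 2 title numbers, so control 3 and RNAi 5 added nothing to that comparison. The deviations of libraries that share a number correlated at 0.051 and -0.020, and those of the other control and RNAi libraries at -0.084 to 0.041. With deviations from means of 3 libraries, these values cannot decide whether libraries were paired. No gene was called lower in any of these fits. The cytosolic median log2 fold change of 0.25 became 0.34 with scaling by library size, which moved the median of all genes from -0.018 to 0.068, and 0.226 to 0.308 without 1 library. The mitochondrial median was 0.132 to 0.339 without 1 library.

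Signs changed for 5 mitochondrial genes near 0, none of them called. With scaling by library size AlaRS-m was at 0.003, ProRS-m at 0.026 and SerRS-m at 0.017, and with the block ProRS-m was at 0.118. Leaving out 1 library gave -0.216 to 0.056 for AlaRS-m, -0.092 to 0.245 for CysRS-m, -0.203 to 0.082 for ProRS-m, -0.242 to 0.048 for SerRS-m and -0.405 to 0.058 for ValRS-m. The causes were not tested. Lower counts of the mitochondrial genes went with larger errors.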
